A study of Mus musculus with 4 samples.

Results

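Ribosomal protein pseudogenes are named copies, scattered over the mouse genome, mostly of cytosolic ribosomal protein genes. They were followed in RNA of 2-cell embryos cultured with or without dimethyl sulfoxide (DMSO), a solvent and cryoprotectant. A gene was taken as a member where its symbol in GENCODE, the reference gene annotation, begins with Rpl or Rps and holds -ps. The table of 30049 Ensembl genes held 256 of these, of 300 such symbols in the annotation used here. Of these members, 244 are annotated as processed pseudogenes, 6 as transcribed processed pseudogenes and 6 as protein-coding genes, so the label of processed pseudogene did not apply to all. The protein-coding ones are Rps12-ps3, Rpl10-ps3, Rpl9-ps6, Rpl36a-ps1, Rpl36-ps4 and Rpl9-ps1. The parent of a member is the gene whose symbol stands before -ps, and 253 members had a parent in the table, 55 genes in all. Rpl18-ps1, Rpl18-ps2 and Rpl48-ps1 had none there.

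The study compared wild-type embryos from crosses of BDF1 mice, an F1 hybrid of C57BL/6 and DBA/2. Zygotes were taken 18 h after human chorionic gonadotropin and kept for 24 h in KSOM, a culture medium for preimplantation embryos, either plain (control) or with 2% DMSO. Each group had 2 libraries, and 50 embryos at the 2-cell stage were pooled for each group. Nothing in the labels says that the libraries of a group came from separate cultures, so p-values measure only the spread between these libraries, which may be technical. Values are in TPM, a unit in which the reads assigned to a gene are divided by a transcript length and by the library total. How well such levels compare between genes was not assessed, above all for short members and for copies that share reads with a parent. TPM values keep no sequencing depth, and no counting error or detection limit could be given. They are also shares of a total, so a fall of a transcript cannot be told from a rise of others. Embryos were pooled, so fewer cells carrying a transcript and less of it per cell cannot be told apart.

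Ribosomal proteins build the small (Rps) and large (Rpl) subunits of the ribosome, and in mammals nearly every one is made from a single gene with introns. Their mRNAs are short and abundant, and reverse transcriptase of mobile elements has often copied them back into the genome. Such a processed pseudogene lacks introns and usually a promoter of its own, and it gathers mutations with age. A young copy can therefore be identical to the spliced mRNA of its parent, and reads from the mRNA then match both. The program used by the authors, kallisto, assigns reads by words of 31 bases and divides reads that match several transcripts by an estimate.

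Stretches of 6 members and their parents show this range, from copies with no difference to a diverged one. They were read from GENCODE transcripts on GRCm38. Capitals mark the bases at which the copy and its parent differ, and positions in a parent are counted from the A of its start codon. Rps16-ps2 (chr5:129128428-129128517, minus strand) and Rps12-ps3 (chr19:59322371-59322460, plus strand) had 0 differences over bases 1 to 90 of their parents' coding sequences. These are shown because no read from such a stretch can tell the copy from the parent.
Rps16-ps2: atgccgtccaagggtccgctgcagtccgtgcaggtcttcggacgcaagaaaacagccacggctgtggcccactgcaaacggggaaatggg
Rps16: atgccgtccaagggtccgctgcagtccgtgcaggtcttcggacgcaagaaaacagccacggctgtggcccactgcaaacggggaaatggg
Rps12-ps3: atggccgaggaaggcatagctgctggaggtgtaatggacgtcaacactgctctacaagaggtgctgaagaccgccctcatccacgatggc
Rps12: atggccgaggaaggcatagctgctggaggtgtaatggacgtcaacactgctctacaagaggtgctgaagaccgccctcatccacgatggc

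Rps19-ps7 (chr2:140073380-140073469, minus strand) differed from Rps19 at 3 of 90 bases, from 1 to 90. Rpl39-ps (chr15:102635039-102635188, plus strand) differed from Rpl39 at 1 of 150 bases, from 1 to 150. Both are shown because Rps19-ps7 had the largest fall and Rpl39-ps the largest rise among the members tested, on log2(TPM + 1). With 0.1 added instead of 1, Rpl9-ps6 had a lower log2 fold change (-3.82 beside -2.09) and Rpl9-ps9 a higher one (2.95 beside 2.50).
Rps19-ps7: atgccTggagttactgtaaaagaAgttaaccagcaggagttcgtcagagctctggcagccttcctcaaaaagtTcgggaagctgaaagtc
Rps19: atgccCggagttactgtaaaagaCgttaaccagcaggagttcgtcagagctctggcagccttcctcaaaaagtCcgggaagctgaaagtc
Rpl39-ps: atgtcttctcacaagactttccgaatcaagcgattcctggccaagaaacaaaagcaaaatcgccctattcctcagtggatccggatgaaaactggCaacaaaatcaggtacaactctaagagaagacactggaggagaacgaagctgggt
Rpl39: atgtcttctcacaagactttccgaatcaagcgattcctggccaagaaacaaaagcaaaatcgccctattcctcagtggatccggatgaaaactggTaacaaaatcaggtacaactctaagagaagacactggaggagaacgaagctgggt

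Rpl23a-ps4 (chr2:132662498-132662587, plus strand) differed from Rpl23a at 5 of 90 bases, from 273 to 362. Rpl36-ps1 (chr11:116504677-116504766, plus strand) differed from Rpl36 at 15 of 90 bases, from 159 to 248. Both are shown as members that most reads can tell from their parents.
Rpl23a-ps4: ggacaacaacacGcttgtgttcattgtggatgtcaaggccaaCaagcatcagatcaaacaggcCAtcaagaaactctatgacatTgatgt
Rpl23a: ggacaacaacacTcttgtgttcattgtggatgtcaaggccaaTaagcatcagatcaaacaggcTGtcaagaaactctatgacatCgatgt
Rpl36-ps1: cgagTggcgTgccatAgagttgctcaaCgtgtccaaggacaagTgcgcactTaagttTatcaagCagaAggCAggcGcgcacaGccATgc
Rpl36: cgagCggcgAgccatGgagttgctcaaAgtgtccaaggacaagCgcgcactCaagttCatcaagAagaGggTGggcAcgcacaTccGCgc

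Over all members, the identity to the coding sequence of the parent ranged from 66.7% to 100%, with a median of 96.5% over the 254 that could be aligned. It was at least 95% in 151 members and 100% in 13. The share of a member's 31-base words found in no other gene on either strand, called its own words here, had a median of 36.8%. For 35 members this share was 0%, so no word of theirs was particular to them in this annotation, while 101 members had at least 50% own words. The transcripts quantified by the authors came from another annotation release, in which these shares may differ. Members were 151 to 1214 bases long, with a median of 449.5. They lay on 20 chromosomes, 178 between genes, 71 in an intron of another gene and 7 over an exon of another gene, 5 of these on the same strand and 2 on the opposite one. An open frame from start to stop codon of at least 95% of the parent's coding length remained in 106 members. Rps12 and Rpl31 had the most copies in the table, 22 and 21, followed by Rpl23a and Rps19 with 14 each.

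Few members held nearly all the signal. The median over the 256 members of the mean over the 4 libraries was 0.388 TPM, near the median of 0.357 TPM over all 30049 genes. There were 49 members at 0 TPM in every library and 123 more with a mean under 1 TPM. At the other end, the mean reached 10 TPM in 25 members, which held 95.6% of the TPM of all members, and the 10 highest held 78.7%. Summed over members, the level was 4531 and 7167 TPM in the control libraries (replicates 1 and 2, the order used throughout) and 2493 and 3861 TPM in the DMSO libraries. Both DMSO libraries lay below both control libraries, and replicate 2 was the higher in each group.

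Level went with sequence sharing, as a description over genes of the same libraries. The 35 members with no own words held 81.8% of the members' TPM, and the mean of 13 of them reached 10 TPM. The 72 members with above 50% to 90% own words held 2.03%, and the 29 members above 90% held 0.371%. Of the 101 members with at least 50% own words, 1 reached a mean of 10 TPM, Rpl23a-ps4. Having no own words did not by itself bring a high TPM. Rps23-ps2 and Rpl30-ps8 also had 0% and were listed at 0 TPM in all libraries, and Rps12-ps6, Rps12-ps17 and Rps12-ps18 each had a mean of 0.0370 TPM.

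**Figure D1:**
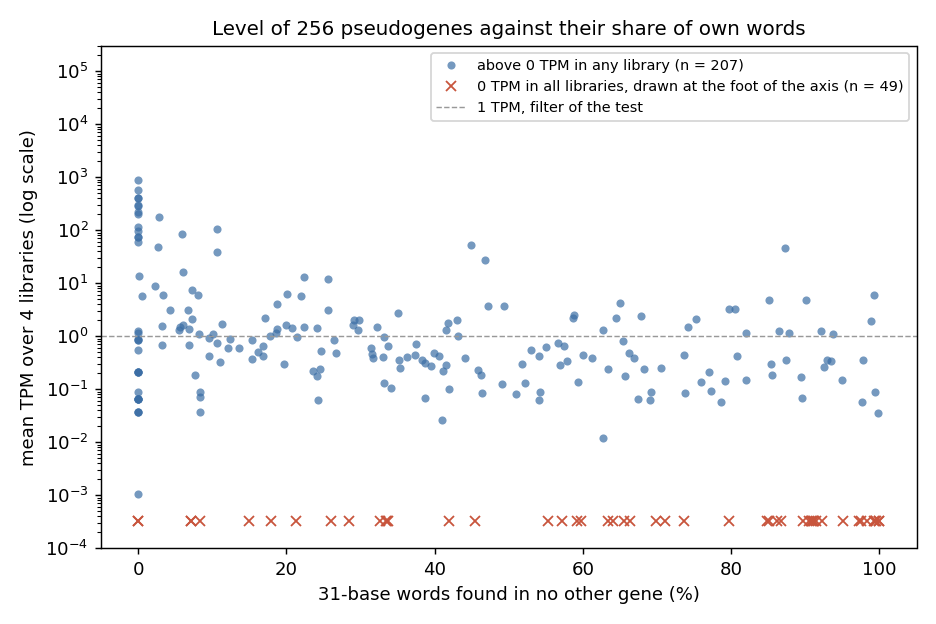
Mean TPM over the 4 libraries (vertical axis, log scale) against the percent of 31-base words found in no other gene (horizontal axis), 1 point for each of the 256 members, with crosses for the 49 members at 0 TPM in all libraries. Of the 25 points above 10 TPM, 13 sit at 0%, and the 1 point above 10 TPM with over 50% own words is Rpl23a-ps4.

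The 10 members of highest mean level were led by Rps23-ps1, whose parent encodes a protein at the decoding centre of the small subunit. Rps23-ps1 had 919 and 1475 TPM in control and 387 and 691 TPM in DMSO embryos. The means were 1197 ± 393 and 539 ± 215 TPM (SD, n = 2 libraries each). Rps23 itself had 283 and 341 TPM and then 105 and 137 TPM. The copy thus stood 3.25 to 5.03 times above the parent in every library, although all of its words occur in Rps23. Rps23-ps1 lies at chr3:37714740-37715164 (GRCm38) over an exon of Gm5148 on the opposite strand, and Gm5148 had 19.7 and 21.3 TPM in control and 10.6 and 9.95 TPM in DMSO embryos. No use of strand was stated for the counting, so reads of these overlapping genes could not be told apart by strand.

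Rps16-ps2, a copy of a gene for a small subunit protein, had 561 and 848 TPM in control and 349 and 540 TPM in DMSO embryos. Rps16 had 714, 934, 366 and 498 TPM in the same order. The copy thus held 44.0% to 52.1% of the TPM of the pair. It lies in an intron of Adgrd1 on the opposite strand, and Adgrd1 had 0.116 to 0.464 TPM. Rps6-ps4, a copy of the gene for the small subunit protein phosphorylated by S6 kinases, had 353 and 774 TPM in control and 177 and 324 TPM in DMSO embryos. Its share of the pair with Rps6 was 28.3% and 41.0% in control and 28.7% and 36.4% in DMSO embryos, higher in replicate 2 of each group. For both copies the DMSO libraries lay below the control libraries.

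Rpl28-ps1, a copy of a large subunit gene, had 405 and 440 TPM in control and 353 and 412 TPM in DMSO embryos. Its groups overlapped. Rpl28 had 311 and 362 TPM and then 190 and 221 TPM, so the share of the pair held by the copy was 56.5% and 54.9% in control and 65.0% and 65.1% in DMSO embryos. Rpl28-ps1 lies in an intron of Zranb3 on the opposite strand, a gene at 15.4 and 15.4 TPM and then 10.9 and 9.32 TPM.

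The other 6 of the 10 highest were Rps13-ps2, Rpl31-ps8, Rpl10a-ps1, Rpl27-ps3, Rps2-ps10 and Rpl10-ps1. Rps13-ps2 had 265 and 589 TPM in control and 112 and 257 TPM in DMSO embryos beside 734, 969, 279 and 417 TPM for Rps13. Rpl31-ps8 had 295 and 494 TPM and then 122 and 234 TPM beside 259, 411, 133 and 181 TPM for Rpl31. Both were lower in both DMSO libraries, as were their parents. Rpl10a-ps1 had 221 and 329 TPM and then 141 and 175 TPM beside 44.1, 93.8, 18.6 and 58.8 TPM for Rpl10a, so the copy held most of the TPM of this pair in every library. Rpl10-ps1, a copy of the gene for a protein that joins the large subunit late in its assembly, had 72.2 and 196 TPM in control and 59.4 and 125 TPM in DMSO embryos, with overlapping groups. Rpl10 had 38.7, 38.2, 22.4 and 38.6 TPM. Rps2-ps10 had 178 and 196 TPM and then 156 and 167 TPM beside 742, 849, 544 and 674 TPM for Rps2. It was the 1 member of the 10 with own words, 2.78% of its words, and the other 9 had none. In 8 of the 10, both DMSO libraries lay below both control libraries, as they did in 38.7% of all genes tested, though quantile normalization turned the direction of Rps2-ps10 (0.060 on the log2 scale).

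**Figure D2:**
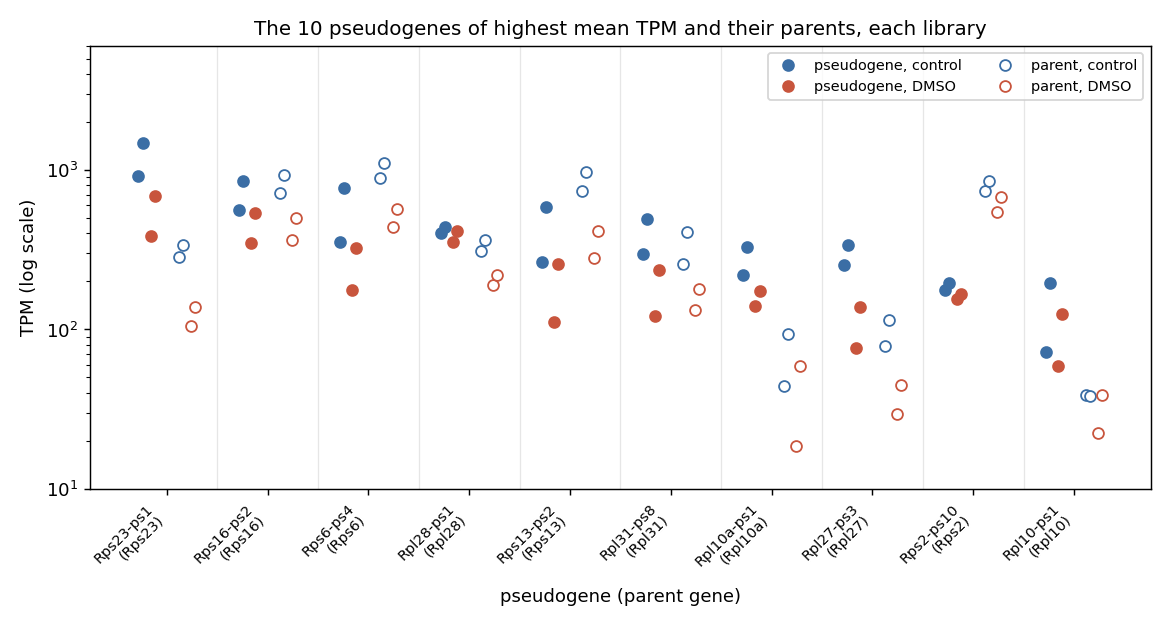
TPM (vertical axis, log scale) in each of the 4 libraries for the 10 members of highest mean TPM (filled) and their parent genes (open), control in blue and DMSO in red. Copies with no word of their own stand at or above their parents in several pairs, such as Rps23-ps1 at 387 to 1475 TPM over Rps23 at 105 to 341 TPM.

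A total of 10 members lay above their parents in mean level, all of them largely or wholly made of shared words. The farthest was Rps12-ps3, annotated as protein coding at chr19:59322290-59322783, with 82.1 and 75.7 TPM in control and 69.3 and 72.4 TPM in DMSO embryos. Rps12, the gene with introns, had 1.44 and 1.94 TPM and then 2.60 and 2.82 TPM, lower in control. The copy held 85.7% to 93.3% of the TPM of the family in each library, and the 22 copies together held 97.4% over all libraries. Rps12-ps3 lies in an intron of Pdzd8 on the opposite strand, a gene at 12.8, 15.8, 7.93 and 7.00 TPM. Rpl34-ps1 exceeded Rpl34 likewise, by 8.59 to 17.0 times, and Rpsa-ps10 had a mean of 105 TPM beside 15.8 TPM for Rpsa, the gene for a small subunit protein also known as the laminin receptor.

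Levels of some shared copies differed widely between libraries of a group. Rpl38-ps2, with no own words and 213 bases, had 23.1 and 172 TPM in control and 10.9 and 89.99 TPM in DMSO embryos, an SD of 106 TPM on a control mean of 97.8 TPM. Rpl10-ps3 had 0.0115 and 9.14 TPM in control and 15.2 and 0.000749 TPM in DMSO embryos. Rpl15-ps3 had 36.7 and 163 TPM and then 16.3 and 24.1 TPM. None of these 3 members was called in the comparison, and the groups overlapped for Rpl38-ps2 and Rpl10-ps3.

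The comparison of DMSO with control embryos asks which transcripts differ in level after 24 h of culture with the solvent. Members that fell outnumbered the 1 that rose, Rpl39-ps, but the share that passed the test was below that of the whole table. The fit ran on log2(TPM + 1) with limma over the 12038 genes whose mean reached 1 TPM, and a gene was called where its adjusted p-value (Benjamini-Hochberg) was under 0.05. By this rule 84 of 256 members were tested, 64 with both group means at 1 TPM or more, 15 through the control mean alone and 5 through the DMSO mean alone. Of the 84, 1 rose and 9 fell, or 11.9%, where 20.5% of all tested genes were called. In the table as a whole 6.42% of tested genes rose and 14.1% fell. The median log2 fold change of the members tested was -0.72, beside -0.09 for all genes tested, and 69 of the 84 had a value below 0. Both DMSO libraries lay below both control libraries in 42 of the 84, again beside 38.7% of all genes tested. These values count members that passed the filter through 1 group alone. Such a member had to differ, and 3 of the 9 that fell (Rpl9-ps6, Rpl30-ps1 and Rpl23a-ps3) passed through the control mean alone. Among the 64 members with both means at 1 TPM or more, a limit set after the data were seen, 1 rose and 6 fell, or 10.9%, beside 20.4% of the 10639 such genes of the table, with a median of -0.64.

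The calls depended on which libraries entered the fit. Without control replicate 1, control replicate 2 or DMSO replicate 1, limma called 0 members and 3, 3 and 15 genes of the whole table. An unadjusted p-value under 0.05 was then reached by 29, 15 and 18 members, or 34.1%, 19.7% and 20.2%, beside 32.2%, 22.0% and 26.3% of all genes, so these shares were near or below the background. Without DMSO replicate 2, limma still called members, at a share below that of all genes. The median log2 fold change of the members tested was then -0.77. The median stayed below 0 in each case, from -0.85 to -0.44. With no filter on low values beyond 0 TPM, limma called 0 of 207 members and 0 of 22257 genes, with 39 members, or 18.8%, at an unadjusted p-value under 0.05, beside 24.1% of all genes.

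Rpl39-ps rose while its parent fell. Rpl39 encodes a very small protein that lines the exit tunnel of the large subunit. Rpl39-ps had 3.18 and 3.72 TPM in control and 16.4 and 24.2 TPM in DMSO embryos, means of 3.45 ± 0.376 and 20.3 ± 5.56 TPM (SD, n = 2 each). Every DMSO value was above every control value. Its log2 fold change was 2.24 (SE 0.33, limma adjusted p = 0.0181). Rpl39 had 499 and 627 TPM in control and 133 and 225 TPM in DMSO embryos, or -1.69 on the log2 scale (limma adjusted p = 0.0245). The share of the pair held by the copy was 0.634% and 0.589% in control and 10.9% and 9.72% in DMSO embryos. Rpl39-ps is the shortest member at 151 bases, with 25.6% own words and 74.4% of its words in Rpl39, and the printed stretch shows the 1 base that sets it apart. It lies between genes on chromosome 15, 9574 bases from Atf7 on the opposite strand, which had 6.35 and 6.45 TPM in control and 8.49 and 11.1 TPM in DMSO embryos (limma adjusted p = 0.236). Its adjusted p-value was 0.0567 without control replicate 1, 0.129 without control replicate 2 and 0.0605 without DMSO replicate 1, at log2 fold changes from 1.97 to 2.50 over the libraries left out in turn.

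Among the 9 members that fell, Rps19-ps7 and Rpl34-ps1 did so most on log2(TPM + 1), of those above 0 in every library. With a pseudocount of 0.1, Rpl36-ps1 (-2.07) lay between Rps19-ps7 (-2.09) and Rpl34-ps1 (-2.04). Rps19-ps7 is a copy of Rps19, the gene first linked to Diamond-Blackfan anaemia. It had 90.7 and 78.6 TPM in control and 12.8 and 30.4 TPM in DMSO embryos, or -2.04 on the log2 scale (SE 0.42, limma adjusted p = 0.0272). Rps19 had 2558, 3698, 1209 and 2022 TPM and was not called, at -0.98 on the log2 scale (limma adjusted p = 0.0847). Rps19-ps7 held 44.9% own words and lies 6227 bases from Tasp1 on the same strand. Tasp1, the gene for the protease taspase 1, had 22.4 and 28.9 TPM and then 6.53 and 11.6 TPM, and fell as well (log2 fold change -1.44, limma adjusted p = 0.0385).

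Rpl34-ps1 had 132 and 181 TPM in control and 29.5 and 47.7 TPM in DMSO embryos, or -2.01 on the log2 scale (SE 0.33, limma adjusted p = 0.0209). Rpl34, a large subunit gene, went with it at 9.31 and 21.1 TPM and then 3.17 and 2.81 TPM (log2 fold change -1.92, limma adjusted p = 0.0313). Rpl34-ps1 had no own words and shared 80.9% of its words with Rpl34 and 90.1% with Gm10154, which had at most 2.48 TPM in any library. Rpl27-ps3, the 1 called member among the 10 of highest level, had 253 and 338 TPM and then 76.7 and 138 TPM (log2 fold change -1.50, limma adjusted p = 0.0338) beside Rpl27 at 78.3, 114, 29.7 and 44.8 TPM, which fell too (limma adjusted p = 0.0373). The call of Rpl27-ps3 was lost under median-ratio scaling (adjusted p = 0.0512) and quantile normalization (adjusted p = 0.0634), as was that of Rpl27 (0.0550 and 0.0770), which was also lost with no variance trend (adjusted p = 0.0506).

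Rpl36-ps1 was the 1 called member with at least 50% own words, 99.3% of its words. It had 9.79 and 9.61 TPM in control and 1.63 and 3.06 TPM in DMSO embryos, or -1.71 on the log2 scale (SE 0.35, limma adjusted p = 0.0276). Rpl36, for a large subunit protein, had 337, 540, 149 and 267 TPM and was not called (log2 fold change -1.09, limma adjusted p = 0.0804). In the printed stretch 15 of 90 bases differ between them, and identity over the aligned coding sequence was 78.1%.

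Other called members included Rpl15-ps2, Rpl9-ps6, Rpl30-ps1 and Rpl23a-ps3. Rpl15-ps2, in an intron of Tcf12, had 44.1 and 74.1 TPM in control and 12.0 and 22.9 TPM in DMSO embryos. Both DMSO libraries lay below both control libraries. The others of these were low in all libraries, and entered the test through their control means alone. Rpl9-ps6 had 4.63 and 3.23 TPM and then 0 and 0.694 TPM, and lost its call with a pseudocount of 0.1 (limma adjusted p = 0.0604). Rpl30-ps1 had 2.08 and 2.58 TPM in control, Rpl23a-ps3 had 1.42 and 4.16 TPM, and both were listed at 0 in both DMSO libraries, so no fold is given.

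**Figure D3:**
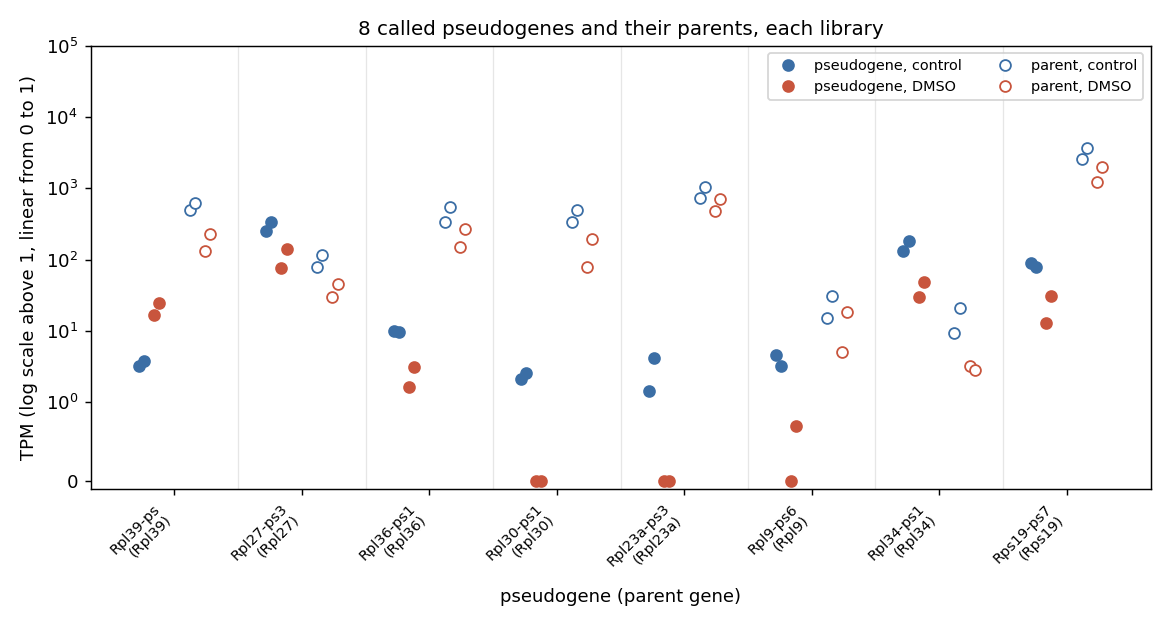
TPM (vertical axis, log scale above 1 and linear from 0 to 1) in each of the 4 libraries for 8 members called by limma (filled), those of the highest level, the largest changes or the most own words, and their parents (open), control in blue and DMSO in red, ordered from the highest to the lowest log2 fold change. Rpl39-ps is the 1 copy whose DMSO points (16.4 and 24.2 TPM) lie above its control points (3.18 and 3.72 TPM).

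The parent genes, most of which encode proteins of the cytosolic ribosome, had called changes in 1 direction. Of the 54 parents tested, 25 fell and 0 rose, or 46.3%, where 14.1% of all tested genes fell. An unadjusted p-value under 0.05 was reached by 38 parents, or 70.4%, and by 40.2% of all tested genes. Their median log2 fold change was -1.09, and both DMSO libraries lay below both control libraries in 45 of the 54, beside 38.7% of all genes tested. Of the 76 genes tested from a list of cytosolic ribosomal proteins, 32 fell and 0 rose, with a median of -1.07. The list holds 52 of the parents tested, of which 23 fell, and the other 2 called parents were Rpl7l1 and Rps4l, the latter itself annotated as a transcribed processed pseudogene. Parents called lower included Rpl39, Rps23 (log2 fold change -1.36), Rps13 (-1.30), Rpl38 (-2.03) and Rpl30 (-1.74), while Rps12 was the 1 parent with a value above 0 (0.47, limma adjusted p = 0.322). Leaving out control replicate 1, control replicate 2 or DMSO replicate 1 left 0 parents called by limma, with 35, 19 and 25 at an unadjusted p-value under 0.05, or 64.8%, 35.2% and 45.5%, beside 32.2%, 22.0% and 26.3% of all genes. Without DMSO replicate 2, 27 parents were called, or 50.0%, beside 17.3% of all genes. No trend in the variance, median-ratio scaling and quantile normalization gave 13, 13 and 12 parents called, or 24.1%, 24.1% and 22.2%, much nearer to the 16.8%, 18.6% and 18.3% of all genes called in the same fits. An unadjusted limma p-value under 0.05 was reached in these fits by 64.8%, 63.0% and 61.1% of parents, beside 39.9%, 41.2% and 41.1% of all genes. The median log2 fold changes of parents were -1.09, -1.04 and -0.94. Rps13 and Rpl30 lost their calls under each of these settings, at limma adjusted p-values from 0.0503 to 0.0650. Their log2 fold changes were then from -1.30 to -1.10 for Rps13 and from -1.74 to -1.51 for Rpl30. Rpl30 also lost it with a pseudocount of 0.1 (adjusted p = 0.0515). With the TPM of a parent and its copies summed, 23 parents were called, or 41.8% beside 20.6% of all genes, and Rps23 (adjusted p = 0.0536), Rps13 (0.0510) and Rps6 (0.0601) lost their calls.

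Other pseudogenes had medians nearer to 0. Among the other processed pseudogenes of the table, 794 were tested, 51 rose and 76 fell, with a median log2 fold change of -0.15. Among the 111 tested genes with -ps in the symbol that copy no ribosomal protein, 7 rose and 7 fell, with a median of 0.09. The first set can hold copies of ribosomal protein genes whose symbols lack -ps. These medians are descriptions, and their differences from the members were not tested.

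Most copies with all their words in the parent had changes close to that of the parent, as a description over genes. In the 12 pairs whose copy had all its words in the parent, the median difference of log2 fold changes, copy minus parent, was 0.0015, and the median size of the difference was 0.15. The exceptions were Rpl38-ps2 (-0.98 against -2.03 for Rpl38), Rps12-ps3 (-0.15 against 0.47) and Rpl28-ps1 (-0.15 against -0.71). Under quantile normalization Rpl28-ps1 turned to 0.11, while Rpl28 was at -0.49. In the 21 pairs with up to 25% of the words in the parent, the median difference was 0.61 and the median size 0.77. In the 29 and 21 pairs with shares between these and the 12, the median size was 0.50 and 0.51. Of the 21 copies with up to 25%, 12 lay below 0 with their parents and 8 lay above 0 while their parents lay below it, against 11 and 0 of the 12 with all words shared. The filter set the sign of 7 of the 21, since 4 of the 8 passed it through the DMSO mean alone and 3 of the 12 through the control mean alone, while all 12 copies with all words shared had both means above it. Among the 14 with both means at 1 TPM or more, 9 lay below 0 with their parents and 4 lay above 0 while their parents lay below it, with a median difference of 0.22 and a median size of 0.69. Level differed between these sets as well. The lowest mean over libraries was 1.12 TPM among the 21 copies with up to 25% and 1.46 TPM among those 14. Among the 12 copies with all words shared it was 60.1 TPM. Sequence sharing and level could thus not be told apart in these differences. The 83 pairs are not independent, since copies of a parent share its value and reads can be divided between members of a pair.

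**Figure D4:**
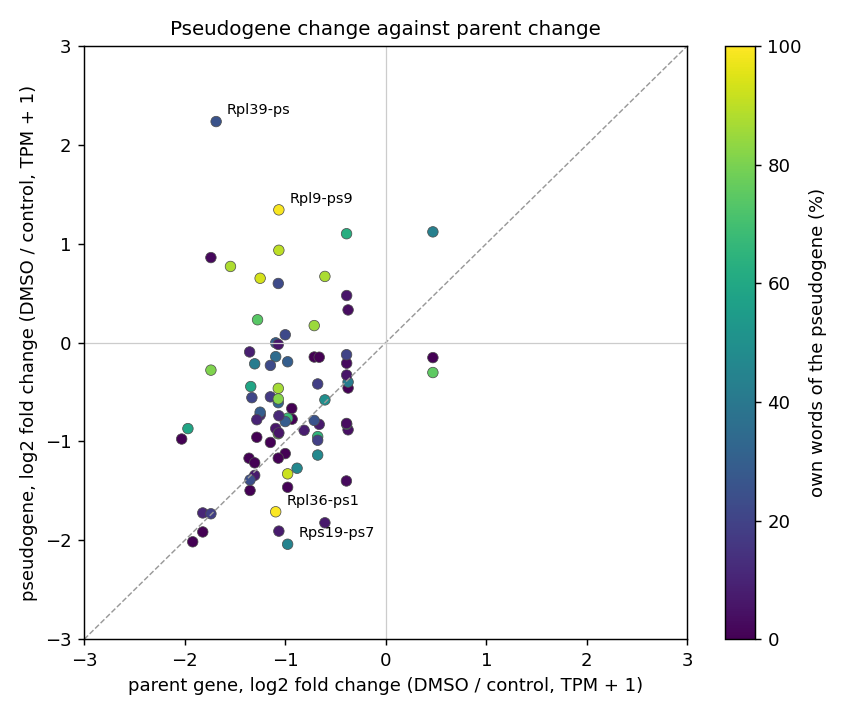
Log2 fold change (DMSO over control, on TPM + 1) of each tested copy (vertical axis) against that of its parent (horizontal axis) for 83 pairs, coloured by the percent of own words, with a dashed line where both are equal. Rpl39-ps stands at 2.24 against -1.69 for Rpl39.

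Members with a sequence of their own were low. Of the 101 with at least 50% own words, 33 were at 0 TPM in all libraries and 48 more had a mean under 1 TPM, which left 20 tested. Of these 0 rose and 1 fell by limma, where 20.5% of all tested genes were called. An unadjusted p-value under 0.05 was reached by 6 of the 20, beside 40.2% of all tested genes. Their median log2 fold change was -0.37, with 8 above 0 and 12 below. These signs were in part set by the filter, since 4 of the 8 passed it through the DMSO mean alone and 3 of the 12 through the control mean alone. Among the 13 with both means at 1 TPM or more, 4 lay above 0 and 9 below, with a median of -0.44. The sum of the 101 was 111 and 105 TPM in control and 110 and 108 TPM in DMSO embryos, and Rpl23a-ps4 alone was 45.9, 27.8, 58.6 and 56.1 TPM of it. Without Rpl23a-ps4 the other 100 summed to 65.0 and 76.7 TPM in control and 51.3 and 52.1 TPM in DMSO embryos, lower in both DMSO libraries. The sum of the other 155 was 4420 and 7062 TPM in control and 2383 and 3753 TPM in DMSO embryos.

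Rpl23a-ps4, with 87.3% own words, was the largest single part of the first of these sums. It copies Rpl23a, whose protein sits at the mouth of the exit tunnel, and had 45.9 and 27.8 TPM in control and 58.6 and 56.1 TPM in DMSO embryos. The DMSO values lay above the control values, but the difference was not called (log2 fold change 0.67, SE 0.32, limma adjusted p = 0.163). Rpl23a had 736 and 1041 TPM in control and 473 and 699 TPM in DMSO embryos. It was lower in DMSO and not called (log2 fold change -0.61, limma adjusted p = 0.190). Over the libraries left out in turn, the log2 fold change of Rpl23a ranged from -0.89 to -0.32. Rpl23a-ps4 was chosen for description after its values were seen.

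The 5 tested members with the largest shares of own words were Rpl36-ps1, described above, Rpl9-ps9 (98.9%), Rpsa-ps3 (93.7%), Rps19-ps11 (92.1%) and Rpl9-ps2 (90.1%). Rpl9-ps9 had 1.53 and 0 TPM in control and 3.63 and 2.51 TPM in DMSO embryos, and was not called (limma adjusted p = 0.0994). Rpsa-ps3 had 0.561 and 0.697 TPM and then 1.06 and 2.16 TPM. Rps19-ps11 had 2.28 and 2.07 TPM and then 0.601 and 0 TPM, and was not called either (limma adjusted p = 0.0532, and 0.0483 with no variance trend). Rpl9-ps2 had 5.51 and 1.18 TPM and then 5.40 and 7.09 TPM, with overlapping groups. Rpl9-ps9 and Rpsa-ps3 entered the test through their DMSO means alone and Rps19-ps11 through its control mean alone, so these 3 had to differ in the direction they did. None of these 4 was called in the fit with a trend, at levels of a few TPM and 2 libraries in each group.

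The share of TPM that copies held of their families, copies and parents together, was 16.0% and 17.8% in control and 18.9% and 18.5% in DMSO embryos. The means were 16.9% ± 1.30 and 18.7% ± 0.282 (SD, n = 2 each), a difference of 1.80 percentage points. An exact two-sided permutation test gave p = 0.33, the smallest that 2 libraries against 2 allow, so the design could not pass 0.05. The difference was 0.885 points without control replicate 1, 2.72 points without control replicate 2 and 2.15 points without Rps23-ps1.

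Markers of the embryo were also measured. The 9 oocyte and early embryo genes summed to 1087 and 704 TPM in control and 2819 and 2178 TPM in DMSO embryos, but Oosp1 made up most of this, at 877, 576, 2086 and 1763 TPM (mean 1326 TPM). Bmp15, Gdf9, Zp2 and Zar1 were likewise higher in both DMSO libraries, while Mos had 5.14 and 5.51 TPM and then 3.83 and 2.94 TPM, and Zp3 had 1.56 and 2.35 TPM and then 1.44 and 0.956 TPM. The 7 of 8 genes of the 2-cell stage in the table, led by Tcstv3 with a mean of 449 TPM, summed to 709 and 485 TPM and then 2057 and 1499 TPM. Zscan4c, Tcstv1, Tcstv3, Zfp352 and Usp17lc were higher in both DMSO libraries. Zscan4d did not follow the sum, with 8.62 and 8.28 TPM in control and 9.24 and 7.12 TPM in DMSO embryos. All markers of these lists found in the table were above 0 in some library, but levels were mixed. Padi6 had 0.860 and 3.32 TPM and then 0 and 1.65 TPM, and Nlrp5 and Gm4340 were close to 0. The 12 cumulus and granulosa cell genes summed to 52.1, 39.6, 42.0 and 40.6 TPM, with Amhr2 the most abundant (mean 22.8 TPM) and Amh and Inhba at 0 in all libraries. Within this sum Amhr2 had 36.8 and 29.6 TPM and then 8.29 and 16.5 TPM, while Nr5a2 had 12.1 and 7.03 TPM and then 29.3 and 19.9 TPM. The 5 blood genes summed to 10.9, 4.21, 10.7 and 16.1 TPM, with Hba-a2 the most abundant (mean 7.01 TPM) and Hbb-bt at 0. The part of these markers' differences in the levels of the copies was not tested.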

How the data were processed

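RNA of 2-cell embryos was sequenced in 4 libraries, 2 control and 2 DMSO, from amplified cDNA in 50-base reads, given both as single end and as paired end in the labels. Libraries were grouped by the sample labels. The authors quantified transcripts with kallisto against Ensembl transcripts (GRCm38, mm10), summed them per gene with tximport and deposited TPM values, which are not counts and keep no depth. The submitters' processing notes also name STAR, SAMtools and bedtools. No version of kallisto is given in the sources used here.

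Names, coordinates, transcripts and coding sequences came from GENCODE M21 (GRCm38), another annotation of the same build than the one quantified, and 29668 of 30049 rows had a symbol. Words of 31 bases were compared on both strands with the transcripts of all other genes, and each member was aligned locally to its parent's coding sequence (Biopython 1.88). Genes whose mean over libraries reached 1 TPM entered a limma fit of log2(TPM + 1) (limma 3.58.1 under R 4.3.3). The fit used eBayes with a trend, no replicate block, and Benjamini-Hochberg adjustment over all genes at a threshold of 0.05. The code was first run on simulated data with independent noise of the same size for every gene. These libraries differ from that setting, so the run does not bear on how reliable the calls are. Fold changes on log2(TPM + 1) understate changes of low genes. With 2 residual degrees of freedom and 2 libraries a group, no exact test of a single value can go below 0.33. Python 3.11.15, pandas 2.3.3, numpy 2.4.6 and matplotlib 3.10.9 were used for other steps.

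Genes named were the 10 members of highest mean TPM, the up to 5 called members with the largest rise and the 5 with the largest fall, the 5 tested members with most own words, and the parents of these. One item is not reported here. Others named, such as Rps12-ps3 or Rpl23a-ps4, were chosen after their values were seen. The members and lists were chosen with earlier results of these data known. Alternatives were another pseudocount (0.1), filter (none, 5 TPM), scaling, variance trend, replicate block, the sum of parent and copies, members with at least 50% own words, and leaving out each library.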

Additional observations from a re-analysis of the deposited data

How the results depend on the processing

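Of the members, 10 were called, and a pseudocount of 0.1, a filter at a mean of 5 TPM, no variance trend, median-ratio scaling and quantile normalization gave 9, 8, 11, 8 and 8, or 10.7%, 24.2% (of 33 tested), 13.1%, 9.41% and 9.52%, beside 17.1%, 32.8%, 16.8%, 18.6% and 18.3% of all genes. With no filter beyond 0 TPM there were 0 called members and 0 called parents, the median of members was -0.24, and 34 parents had an unadjusted p-value under 0.05. Limiting them to those with both group means at 1 TPM or more, chosen after seeing the data, gave 7 called and a median of -0.64. Limiting the members to those with at least 50% own words left 1 called, of 20 tested. With all libraries, 25 parents were called. Leaving out each library in turn gave medians from -0.85 to -0.44 for members and from -1.51 to -0.82 for parents. The difference in the copies' share was then 0.885 to 2.72 percentage points. The remaining library of such a group is assumed to vary like the other group. The parents called were 22 with a pseudocount of 0.1, 32 with a filter at a mean of 5 TPM, 23 after parent and copies were summed (40.7%, 60.4% and 41.8%, beside 17.1%, 32.8% and 20.6% of all genes), 13 with no variance trend, 13 with median-ratio scaling and 12 with quantile normalization. Under quantile normalization the log2 fold changes of Rpl28-ps1 and Rps2-ps10 turned to 0.11 and 0.060. Without control replicate 2 that of Rpl10-ps1 turned to 0.26, and without DMSO replicate 1 those of Rpl10-ps1 and Rpl10 turned to 0.07 and 0.0063, with ranges over the libraries left out from -1.18 to 0.26 for Rpl10-ps1 and from -0.76 to 0.0063 for Rpl10. None of these was called, and the cause was not tested. Among the genes named, calls were lost with the direction kept in 2 with a pseudocount of 0.1 and 4 with no variance trend. They were also lost in 5 with median-ratio scaling, 5 with quantile normalization, 3 with parent and copies summed and 15 with no filter. With the replicate number as a block, 31 members (4 higher, 27 lower) and 44 parents were called (36.9% and 81.5%), and 5132 genes in all (42.6%), with 17 of the named genes gained and 0 lost. Within groups, libraries that share a number deviated together (r = 0.354 across 12038 genes), but 2 pairs with no shared source in the labels do not make the numbers a pairing. TPM keeps no depth, so what depth limits could not be assessed.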
